A study of Mus musculus with 3 samples.

Results

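The genes described here are the 3 Runx transcription factors, Runx1, Runx2 and Runx3, and Cbfb, the subunit they share. All array features named for these 4 genes in the scanner files were taken, which gave 8 probes of 55680 on the array and 4 genes of 35019 names. Tissue was the posterior frontal suture, the midline seam between the frontal bones of the mouse skull. RNA came from C57BL/6 Runx2+/- mice at postnatal day 7 (P7), from Runx2+/+ (wild-type) mice at P7 and from wild-type mice at P5. Each of these 3 groups was hybridised to 1 one-colour Agilent array. The labels do not give the sex of the mice, how many were used for an array, or which part of the Runx2 allele is missing in the Runx2+/- mice. With 1 array a group, every difference is between 2 hybridised samples and has no replicate check and no p-value.

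Runx proteins bind DNA through a conserved Runt domain, and Cbfb, which does not bind DNA itself, strengthens that binding. Runx2 is required for osteoblast differentiation and for the maturation of growth cartilage, Runx1 for definitive blood stem cells and Runx3 for cytotoxic T cells and for proprioceptive neurons. Runx2 is transcribed from a distal promoter, P1, and a proximal promoter, P2, which give proteins with different first residues, and loss of 1 copy of the human gene causes cleidocranial dysplasia with late closure of the skull sutures.

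The arrays differed in brightness, which bears on every value below. The 75th percentile of the processed signal, used here to scale each array, was 124.3 intensity units in P7 Runx2+/-, 22.8 in P7 wild type and 52.1 in P5 wild type. Shares of probes well above background were 47.3%, 29.2% and 40.1% in that order of arrays. The lowest level that still counted as well above background lay at -3.25, -0.78 and -2.12 log2 units relative to the 75th percentile. Probes spotted at least 5 times put the SD of a log2 difference at 0.22 for P7 Runx2+/- minus P7 wild type and 0.25 for P7 minus P5 wild type. This SD covers repeated spots of 1 array only, since each probe of the 4 genes is spotted once. Between different probes of 1 gene the SD, as a root mean square over genes, was larger, at 0.56 and 0.46 in those comparisons. All osteoblast markers of a 12-gene list were well above background in P7 Runx2+/- and in P5 wild type, and 11 in P7 wild type.

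Runx2 has 3 probes, and they do not read the same transcripts, so their sequences are given first. The probe nearest the 5′ end (chr17:44951128-44951187, minus strand, mm9) starts at base 362 of its transcript and spans an ATG, in capitals below. The files list it for 2 of the 3 Runx2 RefSeq transcripts that they name. It is the only Runx2 probe measured for genotype and for age. The Runx2 differences for genotype and age below therefore describe those 2 transcripts and not all Runx2 RNA. The middle probe (chr17:44744925-44744984) starts at base 1830 of the same transcript and is listed for all 3. The probe farthest 3′ (chr17:44633034-44633093) starts at base 2660 of an Ensembl transcript and is listed for none of those RefSeq transcripts. Its first 30 bases are shown.
Runx2 5′ probe: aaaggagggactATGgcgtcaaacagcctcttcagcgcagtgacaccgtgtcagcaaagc
Runx2 middle probe: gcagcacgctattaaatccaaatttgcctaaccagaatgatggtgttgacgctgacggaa
Runx2 3′ probe, first 30 bases: tgattgtttttctcatttatacctacattt
No transcript is listed for all 3 probes. In the genome the middle probe lies 206203 bases and the 3′ probe 318094 bases downstream of the 5′ probe.

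Relative to its array, the 5′ signal of Runx2 was lowest in the Runx2+/- suture, except after normexp background correction. Its processed signal was 262 ± 26.4 intensity units in P7 Runx2+/-, 62.4 ± 7.23 in P7 wild type and 271 ± 27.3 in P5 wild type, where the error is that of the scanner software's model for the spot. Before scaling, the Runx2+/- value was 4.20 times the P7 wild-type value, and the 75th percentiles of those arrays stood at 124.3 and 22.8. After scaling, the 5′ probe stood at 1.08, 1.46 and 2.38 log2 units above the 75th percentile. All 3 values were well above background.

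The Runx2+/- level was lower than that of P7 wild type by 1.30-fold (-0.38 on the log2 scale), 1.71 times the SD between repeated spots. After normexp background correction this difference was 0.21, which is -0.41 relative to the median of all probes, moved to 0.63 by that correction. The P7 wild-type level was lower than that of P5 wild type by 1.90-fold (-0.92), 3.71 times the SD between repeated spots. The Runx2 age difference lay between -1.002 and -0.92 over the scalings and background corrections tried, but relative to the median of all probes it was -0.67 with normexp and -0.99 without. Against P5 wild type, the P7 Runx2+/- level was 2.47-fold lower (-1.30), a comparison in which age and genotype cannot be told apart and which shares arrays with the other comparisons. Fewer cells of a type and less RNA per cell cannot be told apart in such tissue samples.

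The middle Runx2 probe was dim on every array. Its signal was 28.9 ± 4.403 in P7 Runx2+/-, 13.4 ± 3.68 in P7 wild type and 23.9 ± 3.72 in P5 wild type. The P7 wild-type spot was not well above background, and because that array has the highest detection limit, the probe gives no order for genotype or for age. Against P5 wild type, the P7 Runx2+/- level was 1.97-fold lower (-0.98), 4.86 times the SD between repeated spots. The 5′ and middle probes thus both stood lower in P7 Runx2+/- than in P5 wild type, but the middle probe lay within the range of probes as dim as it, whose median was -0.68 (quartiles -1.18 and -0.14).

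The 3′ Runx2 probe behaved differently. Its signal was 47.8 ± 5.57 in P7 Runx2+/-, 4.07 ± 3.03 in P7 wild type and 8.64 ± 2.85 in P5 wild type, and only the Runx2+/- spot was well above background. The Runx2+/- level was at least 1.67-fold above that of P5 wild type, a bound set by the lowest P5 level well above background. No order against P7 wild type could be given, because the Runx2+/- level of -1.38 lies below the detection limit of -0.78 in P7 wild type. The 3 Runx2 probes therefore gave no shared direction.

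**Figure D1:**
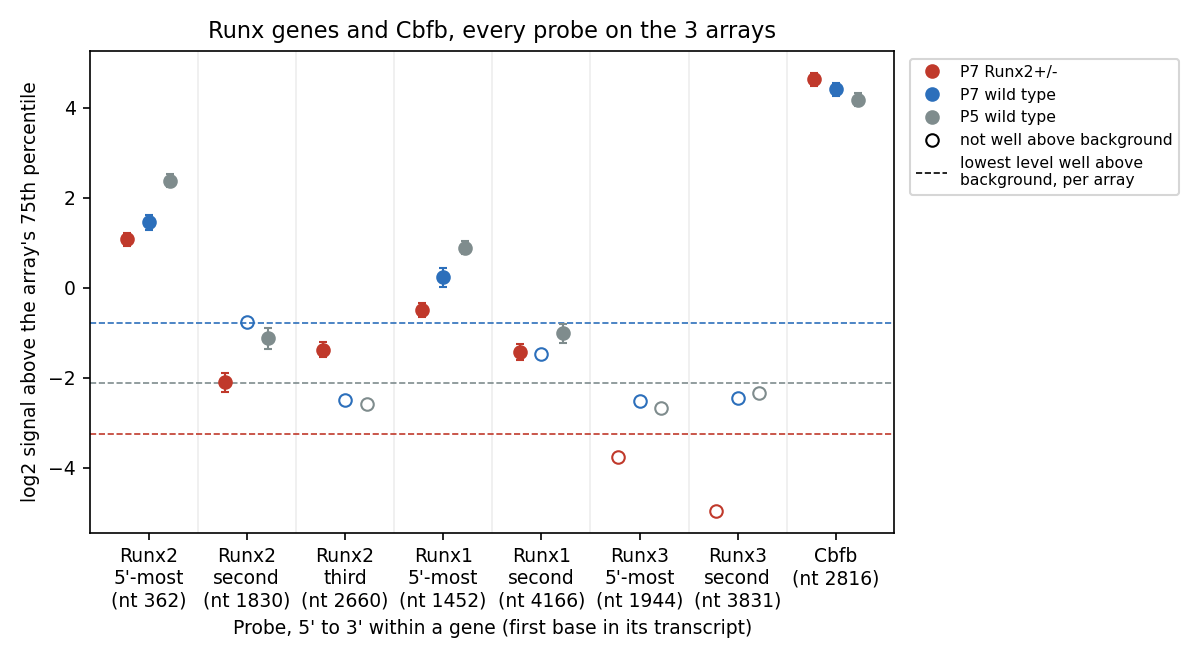
Log2 processed signal relative to each array's 75th percentile (vertical axis) for the 8 probes of Runx2, Runx1, Runx3 and Cbfb (horizontal axis, ordered 5′ to 3′ within a gene), with P7 Runx2+/-, P7 wild type and P5 wild type from left to right. Filled points are well above background and carry the scanner software's error, open points are not, and dashed lines mark the lowest level well above background on each array; the 5′ Runx2 probe stands at 1.08, 1.46 and 2.38 and both Runx3 probes are open on every array.

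RefSeq (GRCm38.p6) gives 1 promoter window for Runx2, which is shown because the Runx genes carry matches to their own binding letters there. It is chr17:44814578-44814877 on the minus strand and runs from 250 bases before to 50 bases after a transcript start. It was searched on both strands for the Runx binding letters TGTGGT and TGCGGT, and matches are in capitals. Its place relative to the probes is not given, since the files use another build.
Runx2 promoter window: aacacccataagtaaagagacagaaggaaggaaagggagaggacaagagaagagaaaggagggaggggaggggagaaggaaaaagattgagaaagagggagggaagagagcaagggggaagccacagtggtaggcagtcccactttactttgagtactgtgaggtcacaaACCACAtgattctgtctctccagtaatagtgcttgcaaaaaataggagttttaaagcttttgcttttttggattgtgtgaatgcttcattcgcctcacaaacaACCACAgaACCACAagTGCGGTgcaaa
It holds 4 matches, at positions -80, 24, 32 and 40 relative to the start. Of 32851 promoter windows of this length, 22.4% hold at least 1 match and 21 windows (0.0639%) hold at least 4.

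The 5′-most windows of Runx1, Runx2 and Runx3 share a run of 18 bases with 2 matches, shown because it is the longest stretch common to these 3 windows.
Shared run: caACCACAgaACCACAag
It begins at position 27 in the Runx1 window, 22 in the Runx2 window and -136 in the Runx3 window. Among all windows only 4 hold it on either strand, and the fourth belongs to Gm16225, whose window overlaps that of Runx3 on the opposite strand. The second windows of Runx1 and Runx3 and the Cbfb window hold no match. A match of letters is a description and not a binding site.

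Runx1 has 2 probes, which the files list for the same 4 RefSeq transcripts, 1372 bases apart in the genome. The 5′ probe (chr16:92605785-92605844, minus strand, mm9) starts at base 1452 of its transcript. Its signal was 88.0 ± 9.25 in P7 Runx2+/-, 26.7 ± 4.003 in P7 wild type and 96.6 ± 9.99 in P5 wild type, all well above background. The scaled levels were -0.50, 0.23 and 0.89, so the Runx2+/- array was lowest and P5 wild type highest, the order seen with the 5′ probe of Runx2. Runx1 was 1.66-fold lower (-0.73) in P7 Runx2+/- than in P7 wild type and 1.58-fold lower (-0.66) in P7 than in P5 wild type. These were 3.29 and 2.65 times the SD between repeated spots. Relative to the median of all probes, the Runx1 age difference was -0.22 with normexp and -0.72 without.

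The 3′ probe of Runx1 (chr16:92604413-92604472) starts at base 4166 of another Runx1 transcript than the one the 5′ position refers to, so the bases cannot be subtracted. Its signal was 46.5 ± 5.59 in P7 Runx2+/-, 8.25 ± 3.30 in P7 wild type and 25.9 ± 3.82 in P5 wild type, and the P7 wild-type spot was not well above background. It gives no order for genotype or age. Against P5 wild type the P7 Runx2+/- level differed by -0.41 with the 3′ probe and by -1.39 with the 5′ probe.

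Log2 differences, taken with their sign, were on the median higher towards the 3′ end of transcripts. The values are given here because they were so for Runx2 and Runx1. Over transcripts with several probes above background on both arrays, the median slope of the log2 difference was 0.13 per kb for P7 Runx2+/- minus P7 wild type (1135 transcripts) and 0.17 for P7 minus P5 wild type (1129 transcripts). It was 0.35 per kb for P7 Runx2+/- minus P5 wild type (1909 transcripts). In that last comparison the Runx2 difference was less negative by 0.33 at the middle (-0.98) than at the 5′ probe (-1.30). These probes lie 1468 transcript bases apart, which gives 0.22 per kb. The Runx1 difference was less negative by 0.98 at its 3′ probe (-0.41) than at its 5′ probe (-1.39), or 0.71 per kb of genome. The part of this slope in the Runx differences was not tested.

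Brightness also moved with the differences. Probes above background on both arrays were divided into 8 equal groups by mean level. The genotype difference of Runx1, -0.73, lies in the dimmest group, whose 1997 probes had a median of -0.70 (quartiles -1.40 and -0.12). Runx1 was about as much lower on the Runx2+/- array as the middle of that group. To be in the group, a probe had to pass the detection limit of -0.78 in P7 wild type but only -3.25 in P7 Runx2+/-. Dim probes that pass both limits are thereby selected towards negative differences. The same holds for the dimmest group against P5 wild type, where the limit was -2.12. The part of this selection in the group medians was not tested. The genotype difference of Runx2, -0.38, stood below the lower quartile of its group (median 0.22, quartiles -0.25 and 0.56). For age, Runx2 at -0.92 and Runx1 at -0.66 both stood below the lower quartiles of their groups, -0.24 and -0.34.

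**Figure D2:**
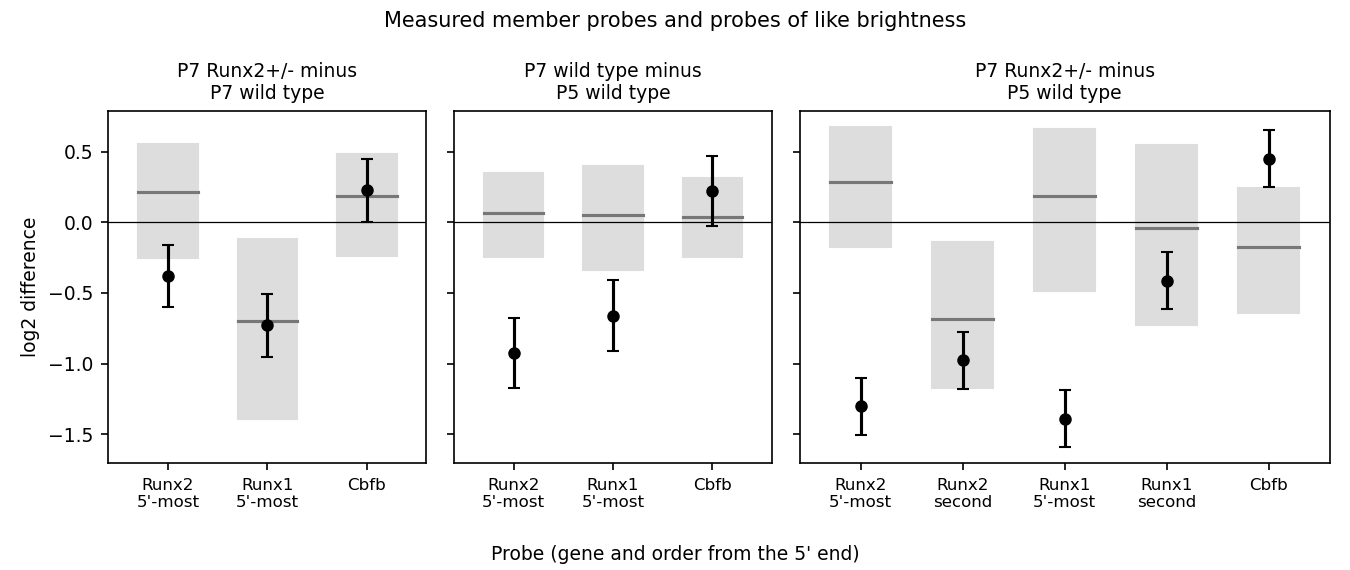
Log2 difference (vertical axis) of each member probe measured on both arrays (points, bars of 1 SD between repeated spots) for P7 Runx2+/- minus P7 wild type, P7 wild type minus P5 wild type and P7 Runx2+/- minus P5 wild type. Grey boxes run from the lower to the upper quartile of probes of like brightness, with the median as a line; the Runx1 genotype difference of -0.73 lies on its group's median of -0.70, and the Runx2 age difference of -0.92 lies below the box.

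Neither Runx3 probe was well above background on an array. The 5′ probe (chr4:134731959-134732018, plus strand, mm9, base 1944 of its transcript) had signals of 9.21 ± 2.996 in P7 Runx2+/-, 3.99 ± 3.01 in P7 wild type and 8.20 ± 2.81 in P5 wild type. The 3′ probe (chr4:134733846-134733905, base 3831) had signals of 4.003 ± 2.77, 4.19 ± 3.17 and 10.3 ± 2.84 in the same order of arrays. Lowest signals counted as well above background were 13.1, 13.3 and 11.99. No fold is given for Runx3, and a transcript below these limits would not have been detected. On a list of 13 genes drawn up for cells known to use Runx3, 6 had no array well above background. They included Cd8a, the cytotoxic T cell coreceptor, Gzmb (granzyme B), Tbx21, Eomes and Ncr1, the natural killer cell receptor. The other 7, Prf1 and Cd3e among them, were well above background on every array. Of all probes, 47.3%, 29.2% and 40.1% were, in the same order of arrays.

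Cbfb was measured by 1 probe (chr8:107741792-107741851, plus strand, mm9), which starts at base 2816 of its transcript and is listed for 4 RefSeq transcripts. Its signal was 3086 ± 309 in P7 Runx2+/-, 482 ± 48.3 in P7 wild type and 945 ± 94.5 in P5 wild type. The scaled levels were 4.63, 4.41 and 4.18, an order opposite to that of the 5′ probes of Runx2 and Runx1. Neighbouring levels in that order differed by about as much as repeated spots did. Cbfb was 0.23 higher in P7 Runx2+/- than in P7 wild type, 1.03 times the SD between repeated spots, and 0.22 higher in P7 than in P5 wild type, 0.90 times that SD. After normexp the age difference was -0.45 and the genotype difference 1.42, where the medians of all probes stood at -0.25 and 0.63. Its genotype difference lay between the quartiles of probes of like brightness (-0.23 and 0.48).

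None of the 3 measured genes was 2-fold apart for genotype, with its brightest probe, where 4.31% of 12915 genes measured on both arrays were at least 2-fold higher and 13.8% at least 2-fold lower in P7 Runx2+/- than in P7 wild type, 18.1% in all. None was 2-fold apart for age either, where 5.09% of 12873 genes were at least 2-fold higher and 2.32% at least 2-fold lower in P7 than in P5 wild type, 7.41% in all. With their 5′ probes, Runx2 and Runx1 were each at least 2-fold lower in P7 Runx2+/- than in P5 wild type. In that comparison 13.8% of 16456 genes were lower by that much, 8.11% higher and 21.9% either way. Their other probes were not 2-fold lower, with the middle Runx2 probe at -0.98 and the 3′ Runx1 probe at -0.41. The 3′ Runx2 probe was at least 0.74 higher. After normexp the 5′ values were -0.71 for Runx2 and -0.84 for Runx1, no longer 2-fold, where the median of all probes was 0.14. The median of all genes was 0.10 for genotype and 0.08 for age.

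The genes whose pattern was most like that of Runx2 were found by the distance between the genotype and age differences, over genes above background on all 3 arrays. Of 9461 such genes, 65 lay within 0.25 log2 units of Runx2. The nearest were Syt6, Ftx, Selplg, Cyb5r4 and Tnni2, at distances of 0.04 to 0.09. Runx1 had 80 genes within that distance, nearest to it H2ac22, Tfrc (the transferrin receptor), Laptm5, Sptan1 and Nrxn2. Cbfb, close to the centre of all genes, had 1298, nearest to it Igf1r, Chchd2, Zdhhc9, Trpc4ap and Mccc2. With 3 arrays, a short distance is a description of 2 differences only.

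Most measured genes known as targets of Runx2 in bone stood lower in P7 Runx2+/- sutures than in those of P7 wild type. Of 19 listed, 15 were measured on both arrays, 12 were at least 2-fold lower and none at least 2-fold higher, with a median of -2.10 beside 0.10 over all genes, of which 13.8% were at least 2-fold lower. After normexp the median was -0.88, where that of all probes was 0.63. Dlx5, a homeobox regulator of bone formation, differed by -3.004, but was dim, with signals of 43.1 in P7 Runx2+/- and 63.3 in P7 wild type.

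Other targets pointed the same way. The collagenase Mmp13 differed by -2.75, and Dmp1, of the osteocyte matrix, by -2.66. Bglap2 (osteocalcin) differed by -2.49 and Col1a1, a chain of the main collagen of bone, by -2.48. Sp7 (osterix), the transcription factor that acts after Runx2 in osteoblast differentiation, differed by -1.67. Bglap and Bglap2, which are counted separately among the 15, are near-identical, and their signals may come from the same transcripts. Ibsp, the bone sialoprotein, was at -0.97. Measured exceptions were Fgf18 at 0.14 and the vascular growth factor Vegfa, at 0.84 with its brightest probe and -1.05 with its other. Tnfsf11 (Rank ligand) and Col10a1, the collagen of hypertrophic cartilage, were too dim to count throughout. Tnfrsf11b and Galnt3 were not counted either, because their P7 wild-type spots were too dim. The Tnfrsf11b level in P7 Runx2+/-, -0.57, lay above the P7 wild-type detection limit of -0.78. The count therefore leaves out a target that stood higher in P7 Runx2+/-. The Galnt3 level there, -2.66, lay below that limit, so no order is given.

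For age, most of these targets stood on the other side of 0 from Runx2. Runx2 differed by -0.92 between P7 and P5 wild type, while 13 of 15 measured bone targets were above 0, with a median of 0.65. Over all genes the median was 0.08 (quartiles -0.25 and 0.41), so most genes also stood above 0. Of the 13 bone targets above 0, 3 were at least 2-fold higher, where 5.09% of all genes were. Mmp13 was 1.26 higher and Dmp1 1.22 higher. Spp1 (osteopontin) at -0.84 and Fgf18 at -0.93 were the members below 0. After normexp the median was 0.01, where that of all probes was -0.25. Genotype and age share the P7 wild-type array, so high values there lower the first difference and raise the second.

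**Figure D3:**
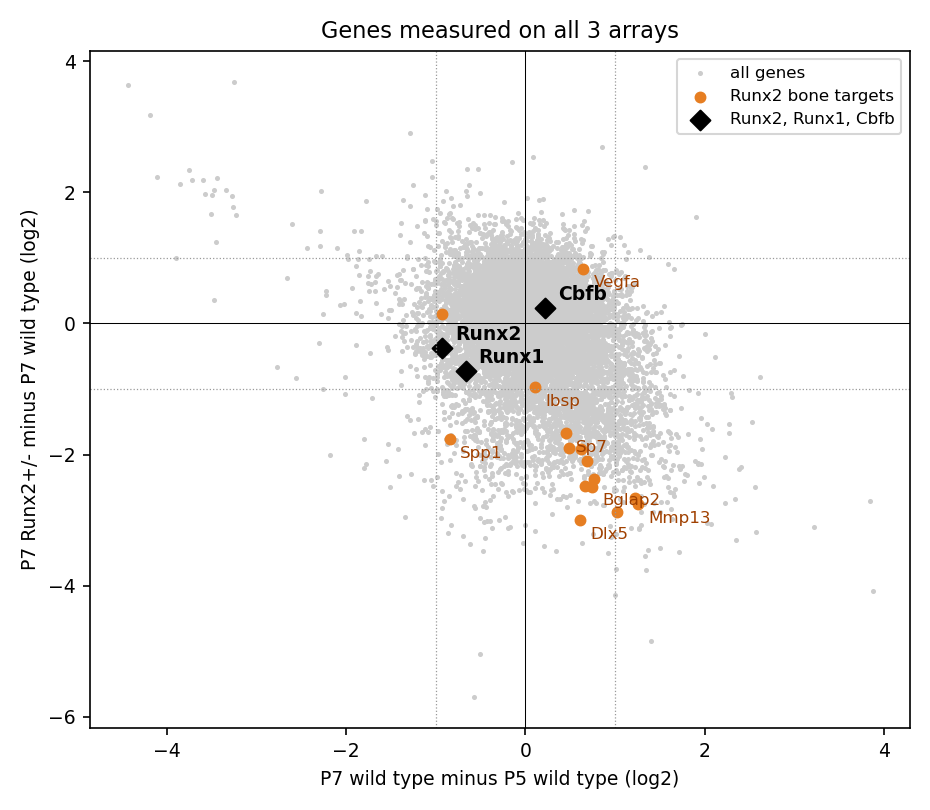
Genotype difference on the log2 scale (vertical axis, P7 Runx2+/- minus P7 wild type) against the age difference (horizontal axis, P7 wild type minus P5 wild type) for genes measured on all 3 arrays (grey), with listed Runx2 bone targets in orange and Runx2, Runx1 and Cbfb as black diamonds; dotted lines mark 2-fold. Both axes use the P7 wild-type array; Runx2 lies at -0.92 for age and -0.38 for genotype (0.21 for genotype after normexp), and most bone targets lie above 0 for age and below -1 for genotype.

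The signal of osteoblast markers is given beside these values. Col1a1, Col1a2, Alpl, Ibsp, Bglap2, Sp7 and Spp1 are on both lists, so the markers are no independent evidence. The summed scaled signal of the 12 osteoblast markers, most of it from Col1a2 and Sparc, was 2477 in P7 Runx2+/-, 8984 in P7 wild type and 6146 in P5 wild type. The median difference of the 11 measured markers was -1.67 for genotype and 0.42 for age. That of 10 measured chondrocyte markers was 0.92 for genotype, where 7 were above 0 and 3 below, and 0.55 for age. The summed signal of the 17 listed was 139.6 in P7 Runx2+/-, 265.6 in P7 wild type and 209.9 in P5 wild type. Its largest part was Sox5, at log2 levels of 6.00, 7.75 and 7.46. The order of the sum is that of this 1 gene and not of most chondrocyte markers. The median of 4 measured hypertrophic chondrocyte markers was -1.31 for genotype and 0.41 for age. Of the 17 chondrocyte markers, 3, Col9a3, Matn3 and Sox6, had no array well above background. The part of cell content in the Runx2 differences was not tested.

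A promoter match was found in 4 of 13 bone targets that had a window, Bglap, Spp1, Dmp1 and Mmp13, or 30.8%, against 25.03% of 27025 genes. It was found in 1 of 13 Runx1 blood targets (7.69%) and in 3 of 14 hedgehog, Fgf, Wnt and Pthlh pathway genes (21.4%). The match in Bglap, whose promoter is the textbook example of a Runx2 target, lies in chr3:88384581-88384610 (GRCm38.p6, minus strand), at position -132, and is shown in capitals.
Bglap promoter stretch: ccgcaatcacctACCACAgcatcctttggg
Bglap differed by -2.37 between P7 Runx2+/- and P7 wild type.

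Genes of the hedgehog, Fgf, Wnt and Pthlh pathways are named in the study's title, so their counts are no independent evidence of direction. Of 15 measured, 11 were at least 2-fold lower and none at least 2-fold higher in P7 Runx2+/- than in P7 wild type, where 13.8% and 4.31% of all genes were. The median was -1.66, and -0.61 after normexp. Fgf genes were mixed at their brightest probes, with the receptors Fgfr1 at -0.07, Fgfr2 at -0.21 and Fgfr3 at -1.75 and the ligand Fgf18 at 0.14. The other 2 measured probes of Fgfr1 ranged from -1.24 to -0.32. Pthlh itself was well above background in P7 wild type only, and its receptor Pth1r differed by -1.63. Wnt10b, an osteogenic Wnt ligand, differed by -2.81, with signals of 19.7 in P7 Runx2+/- and 25.2 in P7 wild type. Smo, the hedgehog signal transducer, differed by -2.18 at its brightest probe but by 0.23 at its other probe. The hedgehog receptor Ptch1 differed by -2.12 and the hedgehog-binding protein Hhip by -2.02. For age the median was 0.11.

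Proteins that work with Runx factors lay on both sides of 0. Of 18 measured coactivators and partners, 1 was at least 2-fold higher and 4 at least 2-fold lower in P7 Runx2+/- than in P7 wild type. Over all genes 4.31% were higher and 13.8% lower by that much. The median of the 18 was 0.31. The acetyltransferase Crebbp differed by -1.62 and Jun, an AP-1 subunit, by -1.28, beside Dlx5 above. Smad5, a Bmp signal transducer, was 1.014 higher. Yap1 and Wwtr1, the Hippo pathway coactivators, were at 0.56 and 0.82. For age the median was 0.03, and none of the 18 was at least 2-fold lower, where 2.32% of all genes were.

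Corepressors, which let Runx factors silence genes, include the Groucho, histone deacetylase and ETO families. Of 17 measured, only Runx1t1, known as the ETO partner of RUNX1 in human leukaemia, was at least 2-fold higher for genotype, at 1.07, and none was at least 2-fold lower, where 18.1% of all genes were apart. Tle1, a Groucho corepressor, was at 0.46 with its brightest probe and -1.46 with its other, and Ncor1 was at 0.24 and -1.29. For age only Sin3a was at least 2-fold apart, 1.15 higher in P7 than in P5 wild type, where 7.41% of all genes were apart.

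Known inhibitors and ubiquitin ligases of Runx2 were split. Among 11 measured, Twist2 differed by 1.36 and Twist1 by -1.0006 between P7 Runx2+/- and P7 wild type, although both encode bHLH proteins that hold back Runx2. The ligases Smurf1 and Smurf2 were at -0.43 and 0.07, and the median was 0.01. For age Snai1, a zinc finger repressor, was 1.26 higher. Sox9, the chondrocyte factor that opposes Runx2, was not well above background in P7 wild type and was not counted.

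Genes known as Runx1 targets in blood cells lay on both sides of 0. Of 10 measured, 3 were at least 2-fold lower in P7 Runx2+/- than in P7 wild type, and none was at least 2-fold higher. Kit, Cebpe and Cebpa were not counted, because they were not well above background in P7 wild type. Their levels in P7 Runx2+/-, 0.61, 1.02 and -0.45, lay above the P7 wild-type detection limit of -0.78. The count therefore leaves out genes that stood higher in P7 Runx2+/-. Over all genes 13.8% were lower and 4.31% higher by that much. The 3 were Cdkn1a at -1.72, Cd4 at -1.16 and Elane (neutrophil elastase) at -1.13. The median was -0.14, and it was 0.14 after quantile normalization and 0.37 after normexp. Csf1r, the macrophage growth factor receptor, was at 0.09 for genotype and 0.18 for age with its brightest probe, while its other 2 probes ranged from -1.48 to 0.40 for genotype and from -0.04 to 1.38 for age. Spi1, the myeloid master regulator, was well above background in P7 Runx2+/- only. Its level there, -2.48, lies below the detection limits of the other arrays, -0.78 and -2.12, so no order is given. For age Hdc, a basophil and mast cell enzyme, differed by -1.07.

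Blood cell markers varied between the arrays beside Runx1. The summed scaled signal of 12 neutrophil markers was 357 in P7 Runx2+/-, 80.0 in P7 wild type and 919 in P5 wild type, and 12, 9 and 12 of them were well above background. For 10 macrophage markers the sums were 94.8, 85.0 and 76.1, with 10, 9 and 10 well above background. The neutrophil sum was highest at P5, as Runx1 was, and lowest in P7 wild type, where Runx1 was not lowest. The part of blood cells in the Runx1 values was not tested.

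Of the 7 measured genes on the list for Runx3-using cells, 3 were at least 2-fold lower for genotype, where 13.8% of all genes were. Of these 3, Zbtb7b and Cd4 are genes of helper T cells, not of the cytotoxic T cells that need Runx3. The count and the median therefore do not describe Runx3-using cells. Zbtb7b, the helper T cell factor, differed by -1.65 at its brightest probe but by 0.12 at its other probe. Prf1 (perforin) differed by -1.61, and Cd4 is given above. The median was -0.98 for genotype, -0.16 after normexp, and 0.01 for age. Ntrk3, the neurotrophin receptor of proprioceptive neurons, was at 0.17 for genotype with its brightest probe, and at 1.13 to 1.21 with its others.

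**Figure D4:**
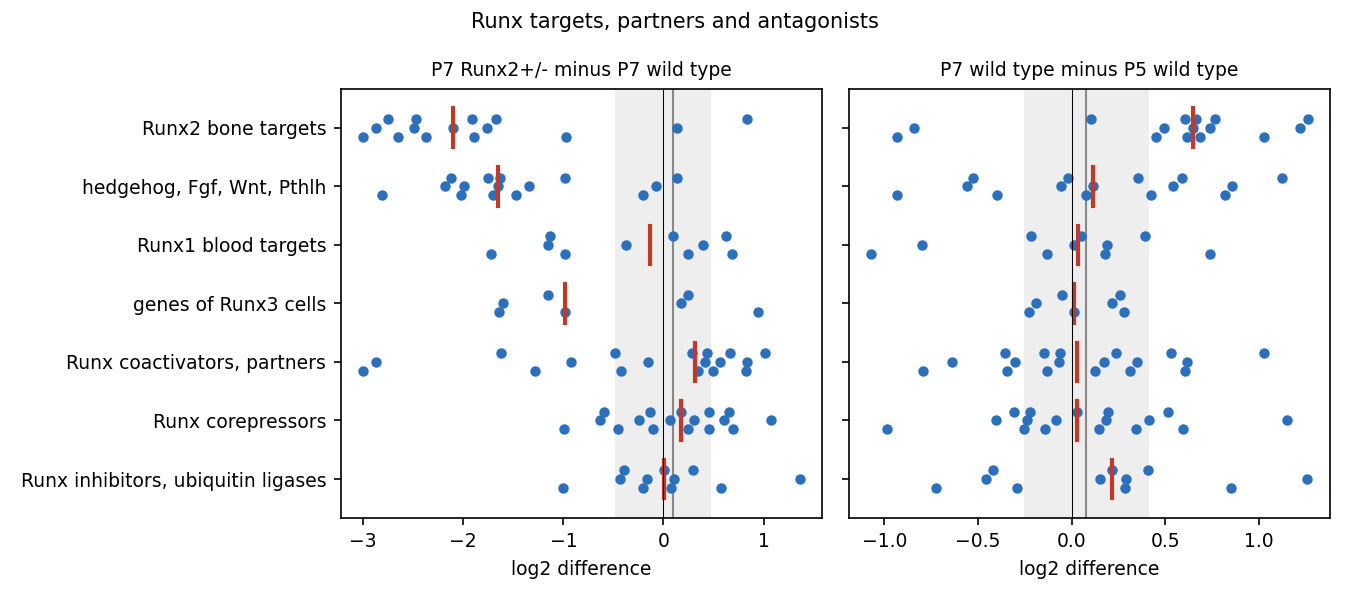
Log2 differences (horizontal axis) of P7 Runx2+/- minus P7 wild type and of P7 wild type minus P5 wild type for each measured gene (points) of the 7 lists tied to Runx factors, with list medians as red bars and the median and quartiles of all genes in grey. The bone targets lie furthest left for genotype, with a median of -2.10, and furthest right for age, with a median of 0.65.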

How the data were processed

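RNA of each of the 3 groups was extracted with ISOGEN, copied into Cy3-labelled cRNA with a low-input kit and put on 1 Agilent array, per the labels' protocols. The intensity values in the deposited scanner files are processed signals on a linear scale, background-corrected by Agilent Feature Extraction, per the file headers (version 10.7.1.1; 9.5.1.1 per the submitters' processing notes). Their value table, also an intensity, has the same median in each column (12.6), and the sources used here do not say how it was made.

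Control and outlier spots were left out, spots of a probe were averaged as log2 values, and each array's 75th percentile was subtracted. A difference needs a probe well above background on both arrays. A bound replaces the dim value by the higher of itself and the lowest level well above background. The brightest probe stood for a gene. No test was possible. Analysis used Python 3.11.15, numpy 2.4.6, pandas 2.3.3 and limma 3.58.1 (normexp, offset 50), and the steps were tested on simulated data. Precision is limited by the number of arrays. Genes and lists were chosen with earlier results of these data known. Genes named from lists are those at least 2-fold apart, up to 4 a list with the largest differences, plus Sp7, Bglap2, Col1a1, Csf1r and Spi1. Ibsp, Yap1, Wwtr1, Smurf1, Smurf2, Tle1, Ncor1, Ntrk3, Spp1, Fgf18, Vegfa, Bglap, Tnfrsf11b, Galnt3 and genes below background were named after their values were seen. Some listed genes that are counted are not reported here by name. For likeness, names that are only clone or locus identifiers were left out. Probe positions are those in the files (mm9). P7 Runx2+/- minus P5 wild type was added because the middle Runx2 and 3′ Runx1 probes are measured only there.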

Additional observations from a re-analysis of the deposited data

How the results depend on the processing

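Quantile normalization, scaling to probes above background on all 3 arrays and the authors' values left each difference of Runx2, Runx1 and Cbfb within 1 SD between repeated spots of the reported value. Using the 3′-most measured probe or the mean of measured probes gave the reported value itself, because a single probe of each gene was measured. Normexp gave genotype differences of 0.21 for Runx2, -0.36 for Runx1 and 1.42 for Cbfb and an age difference of -0.45 for Cbfb. It moved the median of all probes to 0.63 for genotype and -0.25 for age, and relative to those the 4 values were -0.41, -0.99, 0.79 and -0.20. The age differences of Runx2 and Runx1 relative to the median were -0.67 and -0.22 with normexp, against -0.99 and -0.72. Against P5 wild type, the 5′ probes of Runx2 and Runx1 were no longer 2-fold lower in P7 Runx2+/- with normexp (-0.71 and -0.84). Taking the 3′-most probe of each gene even where it was dim, an alternative chosen after seeing the data, Runx2 was at 1.11 for genotype and 0.11 for age, and Runx1 at 0.044 for genotype; the P7 wild-type spots were not well above background.

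The number of genes at least 2-fold apart, 2334 for genotype and 954 for age, was 4645 for genotype with normexp, 18425 and 15132 with no filter on dim probes, 5177 and 3262 at 1.5-fold and 913 and 158 at 3-fold. The share of higher calls, 23.8% for genotype and 68.7% for age, was 93.1% and 1.28% with normexp, 9.43% and 90.3% with no filter, and 7.56% and 54.4% at 3-fold. It was 45.4% for genotype at 1.5-fold and 58.4% for age when arrays were scaled to the 75th percentile of probes above background on all 3. The cause was not tested. No paired analysis was possible because each group has 1 array. Signal over background limits Runx3 and all but 1 probe of Runx2 and of Runx1.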

Other observations

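A probe on the opposite strand lies between the 5′ and middle Runx2 probes, 76642 bases from the 5′ probe (chr17:44874486-44874545, plus strand, mm9). The files name it only by an Ensembl transcript. Its signal was 605 ± 60.5 in P7 Runx2+/-, 35.8 ± 4.59 in P7 wild type and 21.9 ± 3.27 in P5 wild type, all well above background. The scaled level was 3.09-fold higher in P7 Runx2+/- than in P7 wild type and 3.74-fold higher in P7 than in P5 wild type. This order of arrays is opposite to that of the 5′ Runx2 probe. It was looked for after the Runx2 values were seen, and no other probe that is not of Runx2 lies between the Runx2 probes.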
